A study of Bos taurus with 8 samples.

Results

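The transcriptional effectors and regulators of the Hippo pathway YAP1, WWTR1, TEAD1, TEAD4, LATS2, AMOTL1, AMOTL2, ANKRD1 and AJUBA, together with the receptor tyrosine kinase AXL, were taken by symbol from a deposited table of 28709 bovine genes, and all 10 were found. Stranded mRNA libraries had been sequenced from BUTE cells, an immortalized line from the uterine epithelium of a Holstein cow. The cells first spent 24 h without serum or steroids in the presence of insulin-like growth factor 1 (IGF1). In the following 24 h, the cells of 4 libraries received 10 µM progesterone and those of 4 received the vehicle DMSO, and IGF1 at 50 ng/ml was present in all of them. This is a single line from a single animal, so no spread between animals was measured. Whether replicate libraries stem from separate cultures is not stated, so p-values measure only the spread between these libraries, which may be technical.

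The Hippo pathway is a kinase cascade that restrains growth in response to cell contact and mechanical cues. The kinases STK3 and STK4 with the scaffold SAV1 activate LATS1 and LATS2, which with MOB1A or MOB1B phosphorylate the coactivators YAP1 and WWTR1 (TAZ) and so hold them in the cytoplasm. When they are not phosphorylated, YAP1 and WWTR1 enter the nucleus and bind TEAD factors to switch on genes such as CCN1, CCN2, ANKRD1, AMOTL2, LATS2 and AXL, as described in human and mouse cells. Part of this control acts on protein phosphorylation and location, which RNA sequencing does not measure.

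Levels are given in CPM, read counts scaled to a common library size after TMM factors had corrected for library composition. They were not divided by gene length here, so a level is mainly compared between libraries. Between marker genes, and for the part of a gene in a marker sum, levels give only a rough order that gene length may affect. A gene was called where its adjusted p was under 0.05 over all genes tested. Library names follow the table's columns, which are progesterone R1, R2, R3 and R6, and DMSO R1, R3, R7 and R9. Totals ran from 23810861 to 32509786 estimated counts. DMSO R7 and R9 stood apart: across 13557 genes their log2 CPM correlated with each other at 0.992 and with the other 6 libraries at 0.949 to 0.962, while those 6 correlated at 0.983 to 0.992. Fold changes are therefore given against all 4 DMSO libraries and again against DMSO R1 and R3 alone.

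The bulk RNA held epithelial and mesenchymal transcripts together. The keratin KRT8 lay between 1348 and 2107 CPM with progesterone and between 2286 and 2789 CPM with DMSO, whereas the epithelial adhesion gene EPCAM reached at most 0.595 CPM with progesterone and 2.53 CPM with DMSO, and the claudins CLDN3 and CLDN4 were under 1 CPM in all 8 libraries. The summed level of the 7 epithelial markers, most of it KRT8, was 1727 to 2640 CPM with progesterone and 2815 to 3067 CPM with DMSO. Its members did not move together. Against all 4 DMSO libraries the log2 fold change was -0.51 for KRT8, -1.73 for EPCAM and -1.49 for the keratin KRT18, which reached at most 6.92 CPM. It was 0.08 for the keratin KRT19 and 0.37 for the cadherin CDH1. The summed level of the 7 fibroblast markers was 9070 to 9978 CPM with progesterone and 9173 to 14171 CPM with DMSO, with the upper DMSO values in R7 and R9. Its largest part in every library was the vimentin gene VIM. VIM lay between 6562 and 7467 CPM with progesterone and between 5814 and 6816 CPM with DMSO (log2 fold change 0.10). The collagen gene COL1A1 was at 6554 and 5295 CPM in R7 and R9 and at most 2046 CPM in the other 6 libraries, whereas the proteoglycan gene DCN was lowest in R7 and R9, at 268 and 281 CPM, and the receptor gene PDGFRB was lowest there too. That of the 5 smooth muscle markers was 1573 to 2110 CPM with progesterone and 2094 to 2922 CPM with DMSO. Of the 5 immune markers, the leukocyte gene PTPRC and the complement gene C1QA had no count in any library, and the sum was 8.88 to 13.9 CPM with progesterone and 5.37 to 13.2 CPM with DMSO. Of the 5 endothelial markers 3 stayed under 1 CPM, and the sum was 3.73 to 6.62 CPM with progesterone and 2.99 to 4.96 CPM with DMSO. In bulk samples, fewer cells of a type and less RNA per cell cannot be told apart.

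AXL RNA fell to a mean of 294 CPM with progesterone, against 444 CPM with DMSO, while the group means of YAP1, WWTR1, TEAD1 and TEAD4 differed by less than the SD of their DMSO libraries. AXL was the only one of the 10 genes that passed the test against all 4 DMSO libraries, 1 lower and 0 higher, and 9 did not pass. Over all 13557 genes tested, 2.65% passed, 0.959% lower and 1.69% higher with progesterone. Before adjustment 4 of the 10 had a p under 0.05, as had 26.8% of all genes. DESeq2 called AMOTL2, ANKRD1 and AJUBA besides AXL, where it called 13.5% of all genes, and limma voom called AXL alone, where it called 2.35%. Against DMSO R1 and R3 alone, 0 of the 10 passed in edgeR, where 1.18% of 13764 genes did, 0.182% lower and 0.995% higher. There 3 of the 10 and 15.9% of all genes were under 0.05 before adjustment. AXL was called there by DESeq2, which called 4.13% of all genes, and not by limma voom, which called 0 of the 10 and 0.988% of all genes. The median log2 fold change of the 10 genes was 0.05 against all 4 DMSO libraries, beside -0.01 over all genes tested, and -0.005 against R1 and R3, beside 0.01 over all genes.

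**Figure D1:**
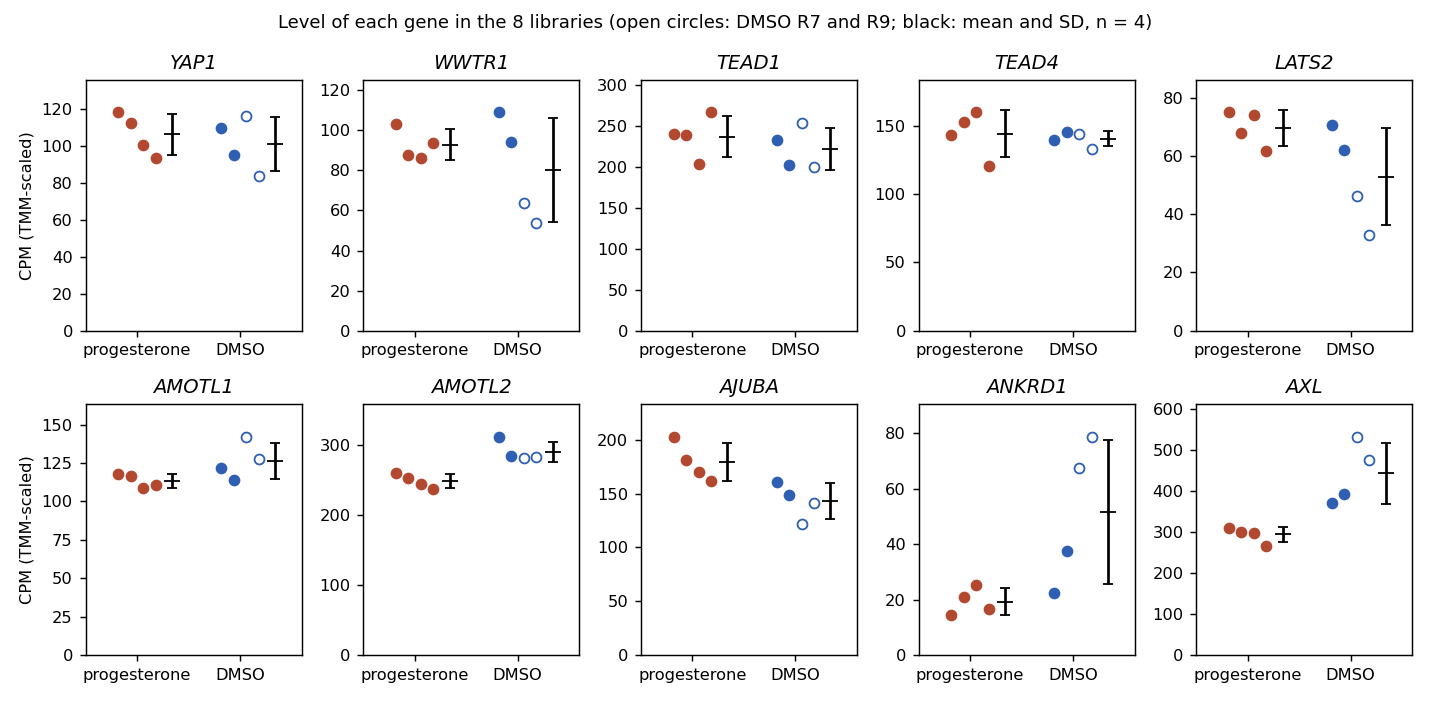
Level of each of the 10 genes in CPM (vertical axes, linear from 0) in the 4 progesterone libraries (red) and the 4 DMSO libraries (blue; open circles are DMSO R7 and R9), with the mean and SD of each group in black. AXL and AMOTL2 are lower and AJUBA is higher in every progesterone library than in any DMSO library, while WWTR1, LATS2 and ANKRD1 spread widely in DMSO with R7 and R9 apart from R1 and R3.

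AXL (Entrez Gene 516598, chromosome 18) encodes a receptor tyrosine kinase of the TAM family that is activated by the ligand GAS6 and promotes survival and migration. It stood at 311, 301, 299 and 267 CPM in progesterone R1, R2, R3 and R6, and at 372, 393, 533 and 477 CPM in DMSO R1, R3, R7 and R9. Every progesterone library lay below every DMSO library, and among the DMSO libraries R7 and R9 were the highest. AXL averaged 294 ± 19.2 CPM with progesterone and 444 ± 75.1 CPM with DMSO (SD, n = 4 each), which is 1.51-fold lower (log2 fold change -0.59 ± 0.12 SE, 95% interval -0.86 to -0.32, edgeR adjusted p = 0.0377). Against R1 and R3, which averaged 382 CPM, it was 1.29-fold lower (log2 fold change -0.36 ± 0.09 SE, 95% interval -0.57 to -0.16) and missed the threshold with an edgeR adjusted p of 0.0910.

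The AXL call did not survive the loss of most single libraries. Leaving out DMSO R7 or R9 moved the log2 fold change to -0.49 or -0.56 and the edgeR adjusted p to 0.0958 or 0.0999. Leaving out progesterone R1, R2, R3 or R6 gave log2 fold changes of -0.62, -0.58, -0.60 and -0.55 and edgeR adjusted p of 0.0823, 0.121, 0.0940 and 0.114. In these fits only 0.306% (without progesterone R1) to 0.6% (without DMSO R9) of all genes passed, beside 2.65% with all 8 libraries. Without DMSO R1 or R3, where 13% and 5.78% of all genes passed, AXL passed too, with log2 fold changes of -0.67 and -0.64 and edgeR adjusted p of 0.0157 and 0.0365. Over 13 alternatives, not counting the block on column numbers, the adjusted p from edgeR, DESeq2 or limma voom lay between 0.000421 and 0.121, and AXL passed in 7, with a negative fold change in each. The epithelial marker sum, through KRT8, was also lower in every progesterone library than in any DMSO library, and the fibroblast marker sum, through COL1A1, was highest in DMSO R7 and R9, as AXL was. The smooth muscle marker sum, through TAGLN, was highest there too, at 2922 and 2878.5 CPM. CDH1, KRT19, DCN, PDGFRB, ACTA2 and CNN1 did not follow these sums over the 8 libraries. The part of these markers in the result was not tested.

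YAP1 (100336629, chromosome 15) is the coactivator that LATS kinases restrain. It stood at 118, 112, 101 and 93.1 CPM in progesterone R1, R2, R3 and R6, and at 109, 94.7, 116 and 83.7 CPM in DMSO R1, R3, R7 and R9. The groups overlapped almost completely, and the lowest value was that of DMSO R9. Progesterone over DMSO, this is a log2 fold change of 0.07 ± 0.12 SE (95% interval -0.19 to 0.33, edgeR adjusted p = 0.724), and 0.07 ± 0.11 against R1 and R3. Both intervals lie within a 1.5-fold change in either direction.

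WWTR1 (614786, chromosome 1) encodes TAZ, the paralogue of YAP1. It stood at 103, 87.6, 86.3 and 93.8 CPM in progesterone R1, R2, R3 and R6, and at 109, 94.3, 63.6 and 53.9 CPM in DMSO R1, R3, R7 and R9. DMSO R7 and R9 were the lowest of the 8 libraries and DMSO R1 the highest, so the groups overlapped. Its log2 fold change was 0.21 ± 0.20 SE (95% interval -0.23 to 0.65, edgeR adjusted p = 0.518) against all 4 DMSO libraries and -0.12 ± 0.10 (95% interval -0.35 to 0.11, edgeR adjusted p = 0.622) against R1 and R3, so its sign changed with the vehicle libraries used.

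The balance of the coactivators differed between the DMSO libraries. The log2 ratio of YAP1 to WWTR1, set to a mean of 0 over the 8 libraries, was -0.09, 0.07, -0.06 and -0.29 in progesterone R1, R2, R3 and R6, and -0.28, -0.28, 0.58 and 0.35 in DMSO R1, R3, R7 and R9. This ratio does not depend on the scaling between libraries. It was highest in R7 and R9, and the difference between group means was -0.19 against all DMSO libraries and 0.18 against R1 and R3.

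TEAD1 and TEAD4 encode DNA-binding partners through which YAP1 and WWTR1 reach their target genes. TEAD1 (536560, chromosome 15) stood at 239.7, 239, 204 and 267 CPM in progesterone R1, R2, R3 and R6, and at 233, 203, 254 and 199.8 CPM in DMSO R1, R3, R7 and R9. The groups overlapped, and the log2 fold change was 0.09 ± 0.11 SE (95% interval -0.15 to 0.34, edgeR adjusted p = 0.605). TEAD4 (526771, chromosome 5) stood at 143, 153, 159.6 and 120.5 CPM in progesterone R1, R2, R3 and R6, and at 139, 145, 144 and 133 CPM in DMSO R1, R3, R7 and R9. Progesterone R3 and R6 were the highest and the lowest of the 8 libraries, and the DMSO libraries lay between them. For TEAD4 edgeR gave a log2 fold change of 0.04 ± 0.10 SE (95% interval -0.18 to 0.25, adjusted p = 0.83). With R1 and R3 as the vehicle libraries, the log2 fold change was 0.14 ± 0.12 for TEAD1 and 0.03 ± 0.11 for TEAD4. All 4 intervals lie within a 1.5-fold change.

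The centred log2 ratio of TEAD1 to TEAD4 was 0.05, -0.04, -0.34 and 0.46 in progesterone R1, R2, R3 and R6, and 0.05, -0.21, 0.13 and -0.10 in DMSO R1, R3, R7 and R9. Its spread was wider with progesterone (SD 0.33) than with DMSO (SD 0.15), with R3 and R6 at the ends. The group means differed by 0.07, and without progesterone R6 by -0.08.

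LATS2 (508208, chromosome 12) is the kinase that phosphorylates YAP1 and WWTR1, and it is itself a target of theirs. It stood at 74.9, 67.7, 74.2 and 61.6 CPM in progesterone R1, R2, R3 and R6, and at 70.5, 62.0, 46.1 and 32.9 CPM in DMSO R1, R3, R7 and R9. DMSO R7 and R9 lay below the other 6 libraries, and R1 and R3 lay within the progesterone range. For LATS2 the log2 fold change was 0.40 ± 0.20 SE (95% interval -0.06 to 0.85, edgeR adjusted p = 0.236) and 0.08 ± 0.10 against R1 and R3 (95% interval -0.14 to 0.32, edgeR adjusted p = 0.742). DMSO R9 was the lowest and R7 the second lowest, as they were for WWTR1.

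AMOTL1 and AMOTL2 are angiomotin-like scaffolds that bind YAP1 and WWTR1 and hold them at cell junctions, and AMOTL2 is also a target gene. AMOTL2 (538514, chromosome 1) stood at 260.4, 253, 245 and 237 CPM in progesterone R1, R2, R3 and R6, and at 312, 284, 282 and 284 CPM in DMSO R1, R3, R7 and R9. Every progesterone library lay below every DMSO library, and R7 and R9 were close to R3. AMOTL2 averaged 249 ± 10.0 CPM with progesterone and 290.4 ± 14.3 CPM with DMSO (SD, n = 4 each). This corresponds to a log2 fold change of -0.22 ± 0.08 SE (95% interval -0.39 to -0.05), with an unadjusted p of 0.0152 in edgeR and an adjusted p of 0.110, so it did not pass. Set against R1 and R3, AMOTL2 was at -0.25 ± 0.09 on the log2 scale (edgeR adjusted p = 0.208), about as large as with all 4 DMSO libraries.

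AMOTL1 (541209, chromosome 15) stood at 118, 116, 108 and 111 CPM in progesterone R1, R2, R3 and R6, and at 121, 114, 142 and 128 CPM in DMSO R1, R3, R7 and R9. R7 and R9 were the highest, and DMSO R3 lay within the progesterone range. AMOTL1 had a log2 fold change of -0.16 ± 0.09 SE (95% interval -0.34 to 0.03, edgeR adjusted p = 0.263), and -0.04 ± 0.08 against R1 and R3. The centred log2 ratio of AMOTL1 to AMOTL2 lay between -0.01 and 0.07 in the 4 progesterone libraries, and was -0.19, -0.15, 0.18 and 0.02 in DMSO R1, R3, R7 and R9. The SD of this ratio was 0.03 with progesterone and 0.17 with DMSO.

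AJUBA (519937, chromosome 10) encodes a LIM-domain protein of junctions and the cytoskeleton that binds LATS kinases and restrains their action on YAP1. It stood at 203, 182, 169.8 and 162 CPM in progesterone R1, R2, R3 and R6, and at 161, 149, 122 and 142 CPM in DMSO R1, R3, R7 and R9. Every progesterone library lay above every DMSO library, by a narrow margin between progesterone R6 and DMSO R1. AJUBA averaged 179 ± 17.8 CPM with progesterone and 143 ± 16.5 CPM with DMSO (SD, n = 4 each). Its log2 fold change of 0.32 ± 0.11 SE (95% interval 0.09 to 0.56) had an edgeR adjusted p of 0.101, so it did not pass. With R1 and R3 alone it was 0.22 ± 0.11 (95% interval -0.01 to 0.46, edgeR adjusted p = 0.332). Leaving out DMSO R1, where 13% of all genes passed, gave 0.39 and an edgeR adjusted p of 0.0474, in a range of 0.0474 to 0.243 over the same 13 alternatives.

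ANKRD1 (510376, chromosome 26) encodes a cardiac ankyrin repeat protein that responds to stretch and is a widely used readout of YAP1 and WWTR1. It stood at 14.2, 20.8, 25.4 and 16.5 CPM in progesterone R1, R2, R3 and R6, and at 22.5, 37.7, 67.6 and 78.8 CPM in DMSO R1, R3, R7 and R9. The groups overlapped, since progesterone R3 lay above DMSO R1, and R7 and R9 were the highest. ANKRD1 had the lowest log2 fold change of the 10 genes, -1.42 ± 0.38 SE (95% interval -2.29 to -0.56), with an unadjusted p of 0.00508 in edgeR and an adjusted p of 0.0749, so it did not pass. With DMSO R1 and R3 alone it was -0.63 ± 0.25 (95% interval -1.20 to -0.06, edgeR adjusted p = 0.265). It passed without DMSO R1, where 13% of all genes passed (log2 fold change -1.67, edgeR adjusted p = 0.0151), in a range of 0.0138 to 0.186 over the same 13 alternatives.

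**Figure D2:**
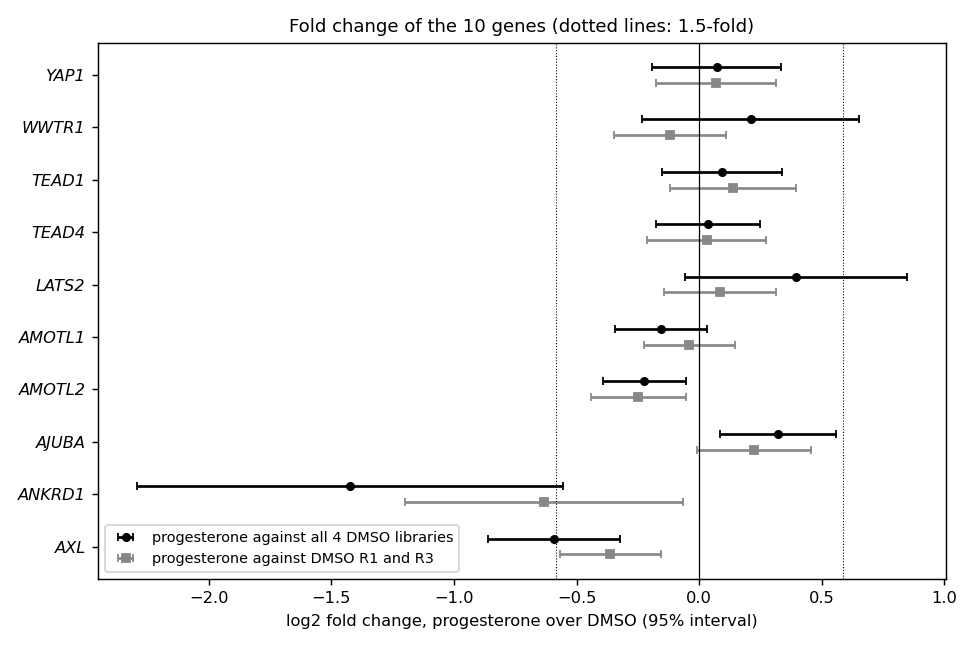
Log2 fold change of progesterone over DMSO (horizontal axis) with its 95% interval for each of the 10 genes, against all 4 DMSO libraries (black circles) and against DMSO R1 and R3 (grey squares); dotted lines mark a 1.5-fold change. The values of YAP1, TEAD1, TEAD4 and AMOTL2 hardly move between the comparisons, WWTR1 changes sign, and ANKRD1 goes to -0.63 and LATS2 to 0.08 against R1 and R3.

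Group separation and the size of the change gave different counts. Among the 10 genes 3 did not overlap between the groups, AXL and AMOTL2 lower and AJUBA higher, beside 16.2% of all genes tested (8.22% lower and 7.95% higher). The same 3 did not overlap against R1 and R3, where 26.8% of genes did not (13.9% lower and 12.9% higher), but the comparisons share 6 libraries. Against all 4 DMSO libraries the 95% interval of 6 of the 10 genes lay within a 1.5-fold change in either direction, as for 54.3% of all genes, and against R1 and R3 that of 9 of 10 did, as for 64.3% of all genes.

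In the order of the 8 libraries, DMSO R7 and R9 were together above the other 6 for AMOTL1, ANKRD1 and AXL, and together below them for WWTR1, LATS2 and AJUBA. These are 6 of the 10 genes, beside 49.2% of all genes tested (25.2% above and 24% below). YAP1, TEAD1, TEAD4 and AMOTL2 had R7 and R9 among the others.

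Among the other genes of the pathway, none of 24 kinases, scaffolds and upstream regulators passed in edgeR against all 4 DMSO libraries. Before adjustment 7 had a p under 0.05, or 29.2%, as had 26.8% of all genes, and the median log2 fold change was -0.11. DESeq2 called 3 of the 24, the polarity scaffold SCRIB, the adaptor FRMD6 and the cadherin FAT4, a share of 12.5% beside 13.5% of all genes, and limma voom called 0. No gene of the core cascade passed. Log2 fold changes were 0.21 ± 0.10 SE for STK3, -0.13 ± 0.10 for STK4, -0.18 ± 0.11 for SAV1, -0.01 ± 0.11 for LATS1, 0.03 ± 0.10 for MOB1A, -0.13 ± 0.08 for MOB1B and -0.16 ± 0.09 for the membrane-linked activator NF2, with edgeR adjusted p between 0.181 and 0.95. Set against R1 and R3, the same genes had log2 fold changes of 0.15 ± 0.11 for STK3, -0.14 ± 0.12 for STK4, -0.25 ± 0.10 for SAV1, 0.04 ± 0.11 for LATS1, 0.03 ± 0.12 for MOB1A, -0.11 ± 0.09 for MOB1B and -0.07 ± 0.10 for NF2, with edgeR adjusted p between 0.249 and 0.937. In the comparison with R1 and R3, 0 of the 24 passed in edgeR. Before adjustment 4 were under 0.05, or 16.7% beside 15.9% of all genes. SCRIB was the 1 gene of the 24 that DESeq2 called there, where it called 4.13% of all genes.

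SCRIB, a basolateral polarity protein that assembles Hippo kinases, had the smallest p of this list. It stood at 180.2, 167, 170.2 and 169.6 CPM in progesterone R1, R2, R3 and R6, and at 138, 136, 147 and 142 CPM in DMSO R1, R3, R7 and R9. The groups did not overlap, with progesterone higher, as for 7.95% of all genes tested, and R7 and R9 were close to R1 and R3. SCRIB had a log2 fold change of 0.29 ± 0.07 SE (edgeR adjusted p = 0.0598) and 0.34 ± 0.08 against R1 and R3 (edgeR adjusted p = 0.0796), so it missed the threshold in both. The junction scaffold DLG5 had a log2 fold change of 0.36 ± 0.12 and FRMD6 one of -0.63 ± 0.21 (edgeR adjusted p = 0.109 and 0.102). FRMD6 was at 199.5 and 202 CPM in DMSO R7 and R9 and between 90.4 and 122 CPM in the other 6 libraries, and against R1 and R3 its log2 fold change was -0.14 ± 0.11 and that of DLG5 0.22 ± 0.12 (edgeR adjusted p = 0.559 and 0.409).

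Of the other TEAD factors and the VGLL cofactors, which compete with YAP1 for TEAD, 4 of 5 were tested and none passed in either comparison in edgeR. VGLL1 had no count in any library. Before adjustment 1 of the 4 was under 0.05 against all 4 DMSO libraries and 0 against R1 and R3, beside 26.8% and 15.9% of all genes. Leaving out single libraries changed calls in these lists only when DMSO R1 or R3 was left out. Without R1, FRMD6, DLG5, VGLL3, CCN1, CCN2 and PROS1 passed with edgeR adjusted p between 0.0239 and 0.0485, and without R3, FRMD6 and CCN2 passed with 0.0394 and 0.0472. These are 6 and 2 of 47 genes, in fits where 13% and 5.78% of all genes passed. TEAD2 and TEAD3 had log2 fold changes of -0.15 ± 0.10 and 0.05 ± 0.10, and 0.00 and -0.03 against R1 and R3. VGLL3 was at 237, 246, 202 and 267 CPM in progesterone R1, R2, R3 and R6, and at 250.5, 294, 458 and 433 CPM in DMSO R1, R3, R7 and R9 (-0.59 ± 0.19 SE on the log2 scale, edgeR adjusted p = 0.0946). Its log2 fold change was -0.18 ± 0.12 against R1 and R3. VGLL4 had a log2 fold change of 0.31 ± 0.15 (edgeR adjusted p = 0.202), and of 0.16 ± 0.12 against R1 and R3 (edgeR adjusted p = 0.554). DESeq2 called VGLL3 against all 4 DMSO libraries, where it called 13.5% of all genes. It called none of the 4 against R1 and R3, where it called 4.13% of all genes. Limma voom called none in either.

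Beside the 4 of the 10 genes that serve as target readouts, 18 other genes commonly read as targets of YAP1 and WWTR1 were listed and 16 were tested. None passed in edgeR against all 4 DMSO libraries, and 6 were under 0.05 before adjustment (37.5%, beside 26.8% of all genes). CCN2 was the 1 gene of the 16 that DESeq2 called, where it called 13.5% of all genes. Limma voom called 0. Their median log2 fold change was -0.30, beside -0.01 over all genes, and 11 of the 16 were negative, or 68.8% beside 51% of all genes. With R1 and R3 alone the median was 0.00, 7 of 16 were negative (43.8%, beside 48% of all genes) and 3 were under 0.05 before adjustment (18.8%, beside 15.9%), while edgeR, DESeq2 and limma voom called 0. Of the 16, 8 were higher in DMSO R7 and R9 than in the other 6 libraries and 3 were lower, beside 25.2% and 24% of all genes.

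CCN1 and CCN2 encode matricellular proteins and are widely used readouts. CCN1 was at 463, 522, 465 and 353 CPM in progesterone R1, R2, R3 and R6, and at 418, 491, 1202 and 1012 CPM in DMSO R1, R3, R7 and R9. R7 and R9 were far above every other library, and R1 and R3 lay among the progesterone values. The log2 fold change of CCN1 was -0.79 ± 0.33 SE (edgeR adjusted p = 0.168), and 0.00 ± 0.14 against R1 and R3.

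CCN2 was at 298, 339.7, 316 and 266 CPM in progesterone R1, R2, R3 and R6, and at 372, 381, 874 and 620.1 CPM in DMSO R1, R3, R7 and R9. Every progesterone library lay below every DMSO library, as for AXL and for 8.22% of all genes tested. Of the 47 other pathway genes tested, 3 did not overlap between the groups, beside 16.2% of all genes. Against R1 and R3, 10 of the 47 did not, beside 26.8% of all genes. On the log2 scale CCN2 differed by -0.88 ± 0.26 SE (edgeR adjusted p = 0.0826) and by -0.29 ± 0.11 against R1 and R3 (edgeR adjusted p = 0.213), so CCN2 did not pass. CCDC80, a matrix protein gene, was at 533 and 550.4 CPM in R7 and R9 and between 108 and 169 CPM in the other 6 libraries (log2 fold change -1.36 ± 0.50, edgeR adjusted p = 0.142), and against R1 and R3 its log2 fold change was -0.09 ± 0.20 (edgeR adjusted p = 0.879).

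IGFBP3, which binds insulin-like growth factors, had the highest log2 fold change of these readouts. It stood at 181, 169, 614 and 354 CPM in progesterone R1, R2, R3 and R6, and at 102, 169, 149.8 and 121 CPM in DMSO R1, R3, R7 and R9. Progesterone R3 and R6 were high and R1 and R2 were close to the top of the DMSO range. IGFBP3 had a log2 fold change of 1.28 ± 0.42 SE (edgeR adjusted p = 0.109), and of 1.29 ± 0.66 against R1 and R3 (edgeR adjusted p = 0.428).

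**Figure D3:**
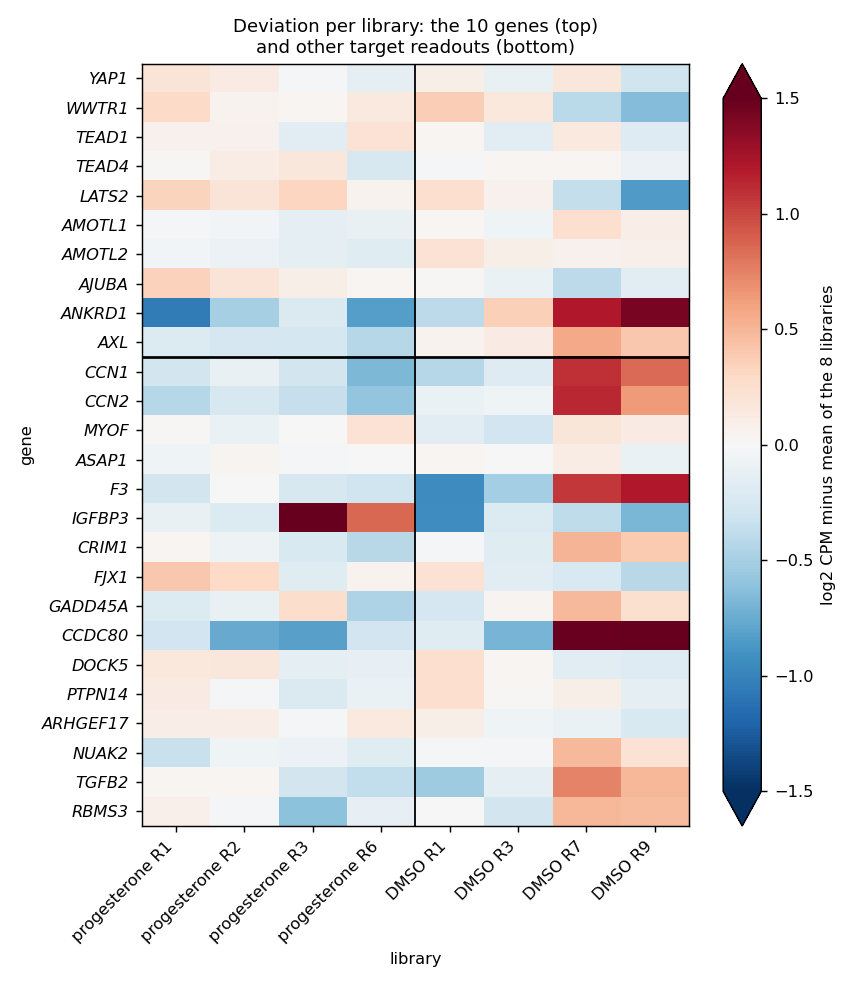
Log2 CPM minus the mean of the 8 libraries (colour, clipped at 1.5 in either direction) for the 10 genes (above the line) and 16 other target readouts (below it), with the 4 progesterone libraries at the left and the 4 DMSO libraries at the right. ANKRD1, CCN1, CCN2, F3 and CCDC80 are higher (red) in DMSO R7 and R9 than in the other 6 libraries, while WWTR1 and LATS2 are lower (blue) there.

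The receptors related to AXL and their ligands were tested in full, and none of the 4 passed in edgeR in either comparison, with 2 and 1 under 0.05 before adjustment, beside 26.8% and 15.9% of all genes. DESeq2 called PROS1 against all 4 DMSO libraries, where it called 13.5% of all genes. It called none of these genes against R1 and R3, where it called 4.13% of all genes. Limma voom called none in either. GAS6, the ligand of AXL, was at 234, 208, 197 and 179 CPM in progesterone R1, R2, R3 and R6, and at 234, 150.4, 64.9 and 53.1 CPM in DMSO R1, R3, R7 and R9. R7 and R9 were lowest for this ligand while they were highest for its receptor. The log2 fold change of GAS6 was 0.71 ± 0.44 SE (edgeR adjusted p = 0.331), and 0.11 ± 0.17 against R1 and R3.

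PROS1, a further ligand of the family, had a log2 fold change of -0.48 ± 0.15 (edgeR adjusted p = 0.0946), and -0.20 ± 0.12 against R1 and R3. The receptor TYRO3 was at -0.03 ± 0.12 on the log2 scale, and at -0.18 ± 0.10 against R1 and R3. MERTK was at 3.73, 4.99, 6.32 and 2.65 CPM in progesterone R1, R2, R3 and R6, and at 2.05, 2.53, 3.16 and 3.29 CPM in DMSO R1, R3, R7 and R9. The groups overlapped for MERTK, with a log2 fold change of 0.68 ± 0.29 (edgeR adjusted p = 0.166). Every progesterone library lay above DMSO R1 and R3, as for 12.9% of all genes tested. Against R1 and R3 the log2 fold change of MERTK was 0.96 ± 0.33 (edgeR unadjusted p = 0.0147, adjusted p = 0.189).

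**Figure D4:**
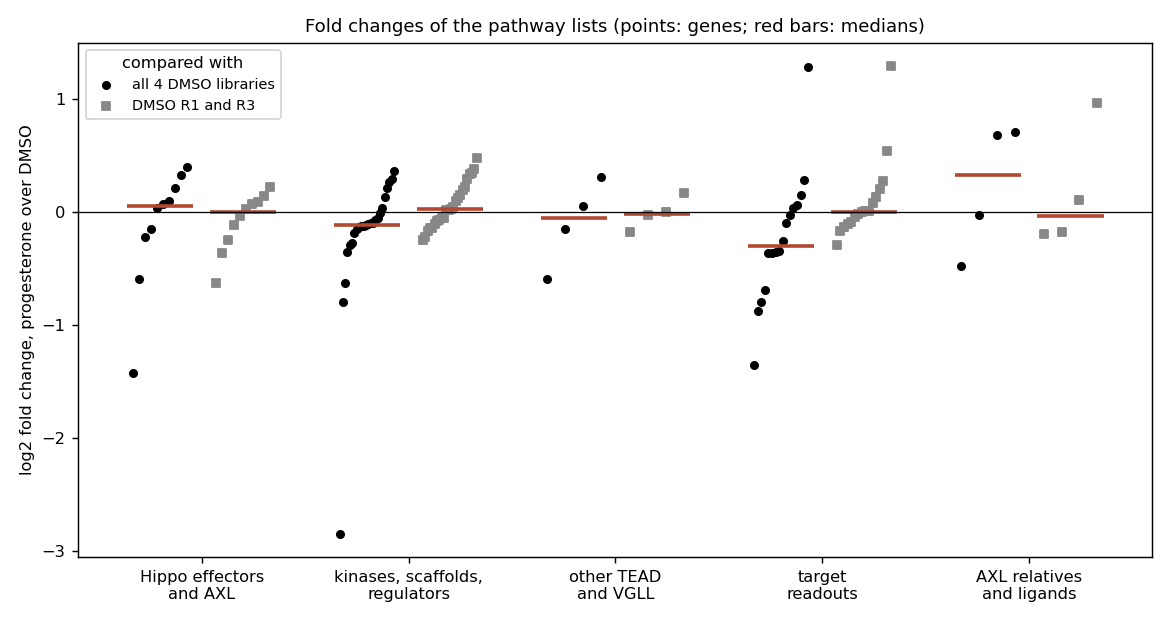
Log2 fold change of progesterone over DMSO (vertical axis) for each tested gene of the 5 lists, against all 4 DMSO libraries (black circles) and against DMSO R1 and R3 (grey squares), with red bars at the medians. The median of the target readouts is -0.30 against all 4 DMSO libraries and 0.00 against R1 and R3; the lowest point is FAT4 at -2.85.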

How the data were processed

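The values of the deposited table were used as estimated counts per gene. Its column totals differ and lie within 0.0691 of whole numbers, although its name speaks of length normalization. These totals cannot show whether the values had been adjusted for gene length. Tools named in the submitters' processing notes, without a role, are Salmon 1.4.0 and bcl2fastq, and the named build is ARS-UCD1.2. The library kit was stranded, per the labels' protocols; no source used here states how transcript values became gene values. Column names give the group of a library and not its sample. All library pairs within a group were further apart than sampling noise (chi-square per degree of freedom 14.9 to 137).

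Counts were rounded, filtered with filterByExpr, scaled by TMM and tested two-sided with edgeR 4.0.16 (robust quasi-likelihood, R 4.3.3), with Benjamini-Hochberg adjustment over all genes. A standard error is the fold change divided by the square root of F, and 95% intervals use the t distribution.

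The 10 genes, the other lists and the choice of DMSO R1 and R3 were made with earlier results of these data known. Named genes are the 10, the core kinases, TEAD factors, CCN1, CCN2 and AXL relatives, genes that passed, and the 3 smallest p of each list. CCN1 and CCN2 were matched through RefSeq symbols. Settings tried besides were no filter, library size only, DESeq2's size factors, DESeq2 1.42.0, limma voom 3.58.1, leaving out each library, and column numbers as a block, which is left out of ranges over 13 alternatives.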

Additional observations from a re-analysis of the deposited data

Results flagged for a closer look

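Within groups of 4 libraries, 64 sets of values were examined for a single library far from the other 3, and 2 were found; chance gives about 1 in 20. AMOTL2 was at 311.8 CPM in DMSO R1, against 281.7 to 284.4 CPM in the other 3 DMSO libraries. Without DMSO R1 its log2 fold change was -0.19 and its edgeR adjusted p 0.155, in a range of 0.0301 to 0.241 over 13 alternatives, the block on column numbers not counted. SAV1 was at 56.09 CPM in DMSO R9, against 72.42 to 73.97 CPM in the other 3. Without DMSO R9 its log2 fold change was -0.27 and its edgeR adjusted p 0.195, in a range of 0.195 to 0.530 over the same 13. The cause was not tested for either.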

How the results depend on the processing

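The lowest count of any of the 10 genes in a library was 399, for ANKRD1. Without DMSO R7 and R9 the SE fell from 0.199 to 0.103 for WWTR1 and from 0.203 to 0.104 for LATS2. It also fell from 0.381 to 0.25 for ANKRD1 and from 0.122 to 0.093 for AXL. The SE moved little for YAP1, AMOTL1 and AJUBA. It rose from 0.111 to 0.117 for TEAD1, from 0.096 to 0.11 for TEAD4 and from 0.077 to 0.089 for AMOTL2. No scaling moved the median log2 fold change of all genes by more than 0.046. Against all 4 DMSO libraries, 359 genes passed, 1830 with DESeq2, 1782 without DMSO R1, 795 without DMSO R3 and 42 (without progesterone R1) to 82 (without DMSO R9) without any other single library. Of the 10 genes 1 passed, 4 with DESeq2 (AMOTL2, ANKRD1, AJUBA and AXL) and 0 to 3 with a library left out (ANKRD1, AJUBA and AXL without DMSO R1); of the other lists 0 passed, 6 with DESeq2 and 0 to 6 with a library left out (6 without DMSO R1, 2 without DMSO R3). Against DMSO R1 and R3, 162 genes passed, 326 without a filter, 568 with DESeq2 and 19 (without DMSO R3) to 178 (without progesterone R6) with a library left out, where a lone DMSO library is assumed to vary like the others; DESeq2 called 1 of the 10 genes and 1 of the lists. Between the groups the log2 ratio moved from -0.188 to 0.184 for YAP1 to WWTR1 and from 0.071 to 0.207 for AMOTL1 to AMOTL2 without R7 and R9. The causes were not tested.

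The titles' replicate numbers could not be matched to columns, and only the column numbers R1 and R3 occur in both groups. Same-numbered libraries deviated together at r = 0.226 and 0.210, over 2 pairs. Differently numbered pairs were not examined, so whether same-numbered libraries share more than a number was not tested. With the column number as a replicate block, DMSO R7 and R9 and progesterone R2 and R6 each form a block alone. They then do not inform the fold change, which rests on the 2 pairs R1 and R3. Almost no degrees of freedom are left to estimate the spread, so its adjusted p are not comparable with those of the other fits. In this fit 2531 genes (18.7%) passed, with 12 of the lists and 4 of the 10 genes. These were AXL (log2 fold change -0.326, edgeR adjusted p = 0.000152), ANKRD1 (-0.610, 5.82e-08), AJUBA (0.264, 0.00206) and AMOTL2 (-0.238, 0.00667), and these values lie outside the ranges of adjusted p given over 13 alternatives.

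Sign changes touched genes that did not pass. With the replicate block the log2 fold change was -0.102 for WWTR1, -0.094 for MOB1A, -0.015 for TEAD3, 0.035 for CCN1 and 0 for LATS1, and without a filter it was 0.015 for LATS1. Against R1 and R3, library size alone gave -0.016 for TEAD4, -0.016 for MOB1A, -0.001 for LATS1 and -0.044 for CCN1, and CCN1 was at -0.009 with DESeq2's size factors, DESeq2 and limma voom and at -0.010 without a filter. With a library left out, ranges over all 4 DMSO libraries were -0.008 to 0.143 for YAP1, -0.016 to 0.114 for TEAD4, -0.074 to 0.070 for LATS1, -0.015 to 0.110 for MOB1A, -0.019 to 0.096 for TEAD3 and -0.088 to 0.078 for TYRO3. Against R1 and R3 they were -0.044 to 0.162 for YAP1, -0.039 to 0.094 for TEAD4, -0.017 to 0.167 for LATS2, -0.115 to 0.196 for LATS1, -0.098 to 0.138 for MOB1A, -0.061 to 0.031 for TEAD2, -0.078 to 0.001 for TEAD3, -0.124 to 0.110 for CCN1, -0.190 to 0.445 for GAS6 and -0.334 to 0.182 for CCDC80.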

Other observations

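The following genes were chosen after their values were seen. FAT4, an atypical cadherin that acts upstream of the Hippo kinases in mammals, was at 3.12, 4.24, 4.67 and 6.82 CPM in progesterone R1, R2, R3 and R6, and at 3.75, 3.75, 69.1 and 58.9 CPM in DMSO R1, R3, R7 and R9. Its ligand DCHS1 was at 6.36, 6.38, 6.78 and 9.84 CPM in the progesterone libraries, and at 5.36, 5.29, 22.6 and 17.8 CPM in DMSO R1, R3, R7 and R9. Both partners were thus high in DMSO R7 and R9, and progesterone R6 was the highest of the other 6 libraries for both. Neither passed against all 4 DMSO libraries (log2 fold change -2.85 ± 1.01 SE for FAT4 and -0.80 ± 0.475 for DCHS1, edgeR adjusted p = 0.13 and 0.303). Against DMSO R1 and R3 the sign was the opposite, with 0.34 ± 0.28 for FAT4 and 0.47 ± 0.21 for DCHS1 (edgeR adjusted p = 0.610 and 0.314). For DCHS1 every progesterone library lay above R1 and R3, as for 12.9% of all genes tested.

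Of the target readouts below the filter on low counts, NT5E, which encodes the ectonucleotidase CD73, was at most 0.414 CPM in the progesterone libraries, and it was at most 0.0734 CPM in DMSO R1 and R3 and at 3.56 and 2.99 CPM in DMSO R7 and R9. The transcription factor FOXF2 was likewise at most 0.414 CPM in the progesterone libraries, and it was at most 0.0734 CPM in DMSO R1 and R3 and at 2.10 and 1.25 CPM in DMSO R7 and R9.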
